A study of Mus musculus with 5 samples.

Results

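The genes described here are 8 genes of iron storage and transport, taken from a fixed list: Fth1, Ftl1, Slc40a1, Slc11a1, Slc11a2, Tfrc, Cd163 and Ireb2. They are 8 of 21887 protein-coding genes outside the mitochondrial genome. Binding of BRG1 at them was read from chromatin immunoprecipitation and sequencing (ChIP-seq) peak lists of mouse bone marrow-derived macrophages (BMDM). There was 1 library each of Baf60a knockout cells given oxidised low-density lipoprotein (oxLDL KO), wild-type cells given it (oxLDL WT), knockout cells without it (KO) and wild-type cells without it (WT). BRG1 (gene Smarca4) is the motor ATPase that lets SWI/SNF complexes slide or evict nucleosomes, and BAF60a (gene Smarcd1) is one of their accessory subunits. The cells that lack Baf60a in the knockout, the strain, age and sex of the mice, and the dose and duration of oxLDL are not stated in the labels used here. An input library without antibody was not analysed here. A peak was assigned to a gene when its summit, the position of highest pileup, lay in the gene body or within 50 kb of it. By this rule the 8 genes held 7 of 4668 peaks in oxLDL KO, 28 of 9907 in oxLDL WT, 0 of 139 in KO and 0 of 237 in WT. Each group is a single library, so replicate error is unknown and no test between groups was possible.

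Macrophages recycle iron from engulfed red cells and store or release it. Ferritin, built from heavy and light chains (Fth1 and Ftl1), stores iron, and ferroportin (Slc40a1) is the known exporter of iron from the cell. The divalent metal transporters NRAMP1 (Slc11a1) and DMT1 (Slc11a2) move iron across the membranes of phagosomes and endosomes, and both the transferrin receptor (Tfrc) and the haemoglobin scavenger receptor CD163 (Cd163) bring iron into the cell. IRP2 (Ireb2) binds iron-responsive elements in mRNAs when iron is low, and thereby adjusts ferritin, ferroportin and transferrin receptor after transcription.

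Peaks near the iron genes were found under oxLDL in both genotypes, with fewer in the knockout. At least 1 peak lay in the window of 5 of the 8 genes in oxLDL KO, against 31.4% of all protein-coding genes, and of 7 of the 8 in oxLDL WT, against 45.6% of all protein-coding genes. All 5 genes of the oxLDL KO list also had a peak in oxLDL WT, a state found at 27.5% of all protein-coding genes. Slc11a2 and Cd163 had peaks in oxLDL WT alone, as did 18% of all protein-coding genes, while 0 of the 8 had them in oxLDL KO alone, as did 3.81% of all. Tfrc had none in any list. In KO and WT 0 of the 8 genes had a peak, where 1.01% and 2.07% of all protein-coding genes had one, so at these short lists a count of 0 is near the background. The median length of the 8 genes was 21.2 kb and that of all protein-coding genes 17.2 kb. Earlier results of these data were known when the genes were chosen, so these shares are a description.

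**Figure D1:**
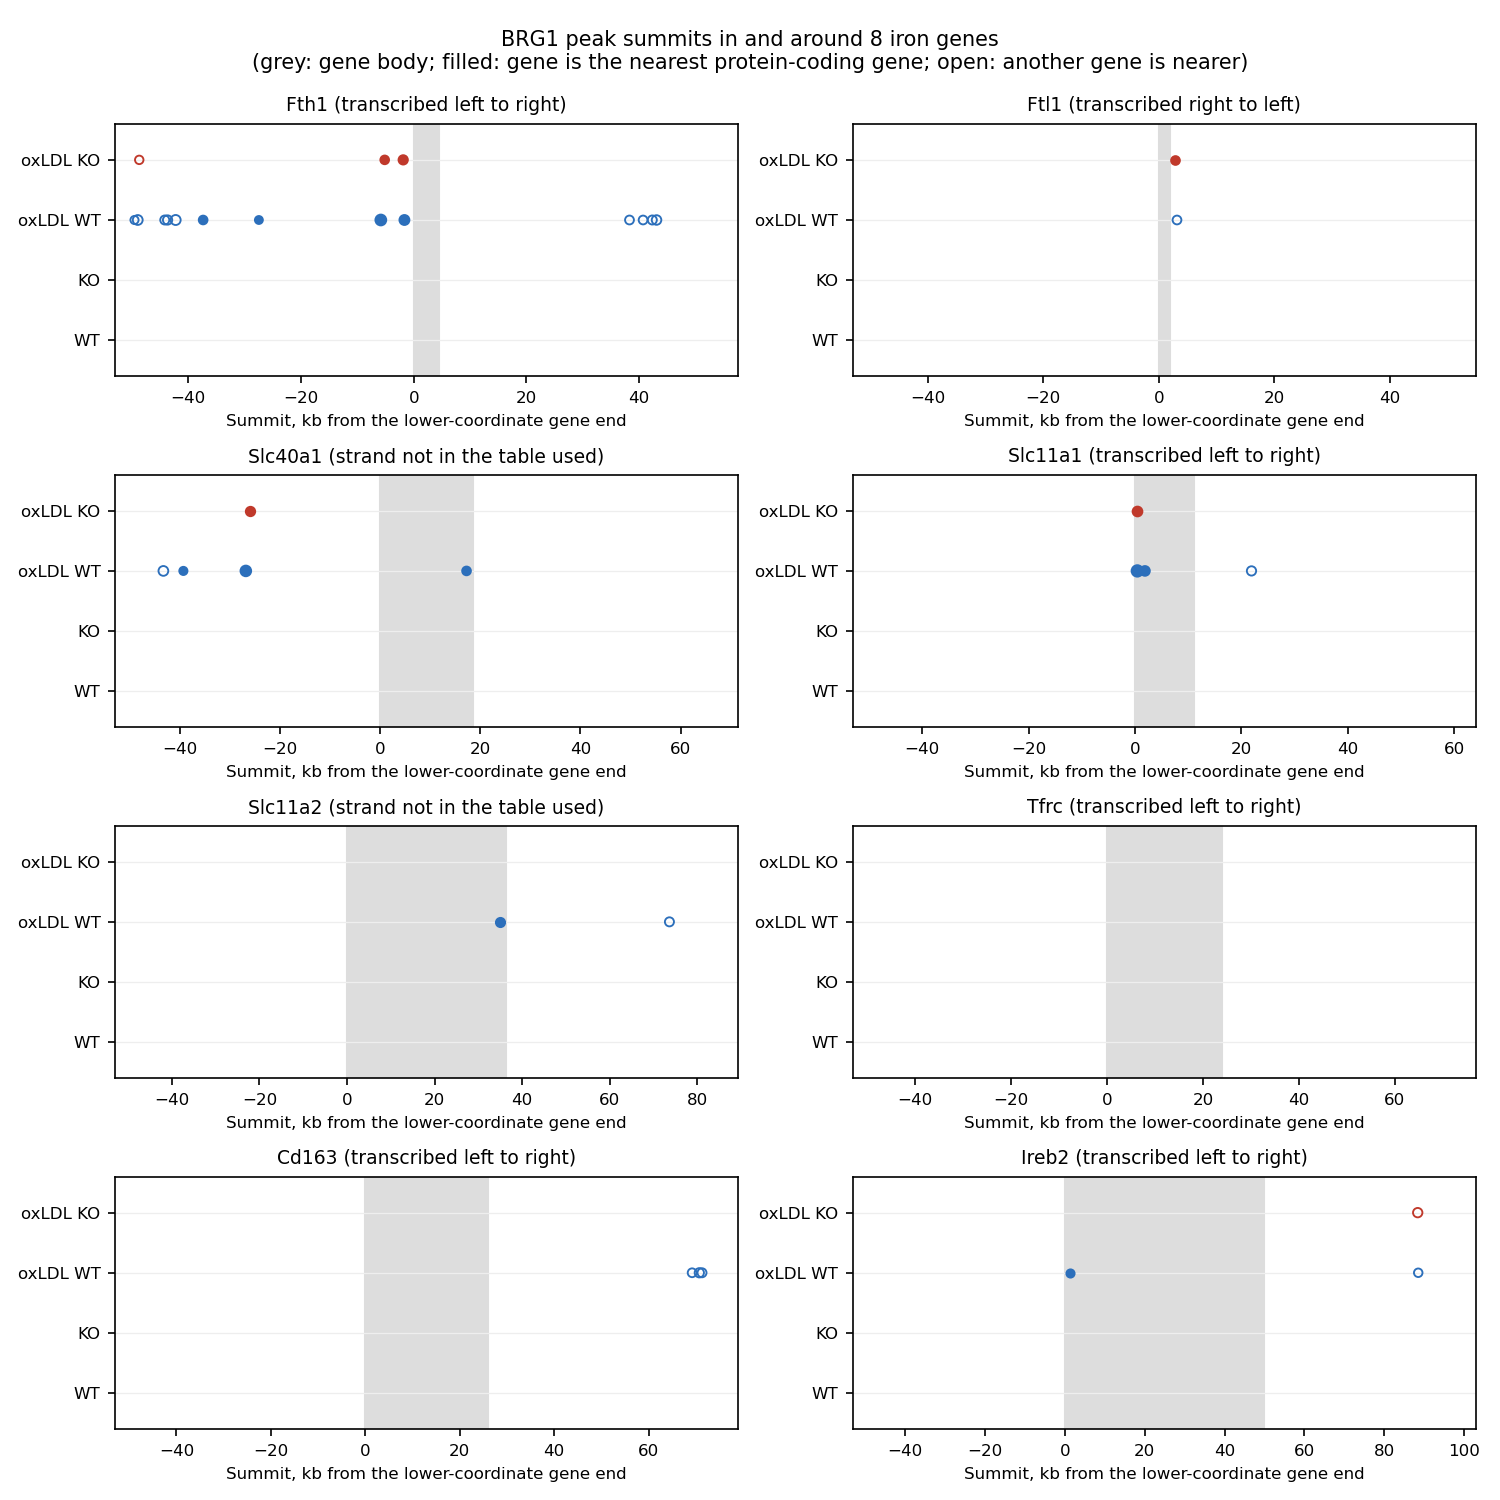
Each panel shows 1 iron gene with its body in grey and, by list, the summit of each BRG1 peak in kb from the lower-coordinate end of the gene. Point area grows with fold enrichment, filled points are peaks whose nearest protein-coding gene is the gene shown, and open points are nearer another gene. Fth1 has 3 peaks in oxLDL KO and 13 in oxLDL WT, Tfrc has none, and the KO and WT rows are empty in all 8 panels.

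The lower number of peaks in oxLDL KO was seen mostly among peaks far from the iron genes or nearer to another gene. The ratio of oxLDL KO to oxLDL WT was 0.250 for the iron gene peaks (7 against 28) and 0.471 for all peaks (4668 against 9907). As a share of its own list this was 0.150% in oxLDL KO (exact binomial 95% interval 0.0603 to 0.309) and 0.283% in oxLDL WT (0.188 to 0.408), and these intervals overlap. They cover counting error only and treat neighbouring peaks as independent. Restricted to peaks whose nearest protein-coding gene was the iron gene itself, oxLDL KO had 5 and oxLDL WT 11, which is a ratio of 0.455. Of the 28 oxLDL WT peaks, 17 were nearer another protein-coding gene, 6 of them inside it, and 19 lay more than 20 kb from the iron gene. In oxLDL KO, 2 of the 7 peaks were nearer another gene and 3 lay more than 20 kb away.

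Heights were moderate in both lists. Fold enrichment, the authors' ratio of fragment pileup to local background at the summit, ran over the iron gene peaks from 3.32 to 4.24 with a median of 3.85 in oxLDL KO, where the median of all peaks was 3.85. In oxLDL WT it ran from 2.78 to 5.84 with a median of 3.78, where that of all peaks was 3.75. The pileups behind them were 14 to 19 fragments in oxLDL KO and 13 to 28 in oxLDL WT. At a −log10 q of at least 5, a stricter limit than the authors' lists apply, 0 of the 7 peaks were left in oxLDL KO, where 19.8% of all peaks pass. The same limit left 7 of the 28 in oxLDL WT, where 25.4% of all peaks pass. By window, these 7 were 4 for Fth1, 2 for Slc40a1 and 1 for Slc11a1. Not all were nearest to the iron gene. The Fth1 window peaks 42.3 and 49.0 kb upstream were nearest to the gene Incenp. The Slc40a1 window peak 43.3 kb away was nearest to the gene Wdr75.

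**Figure D2:**
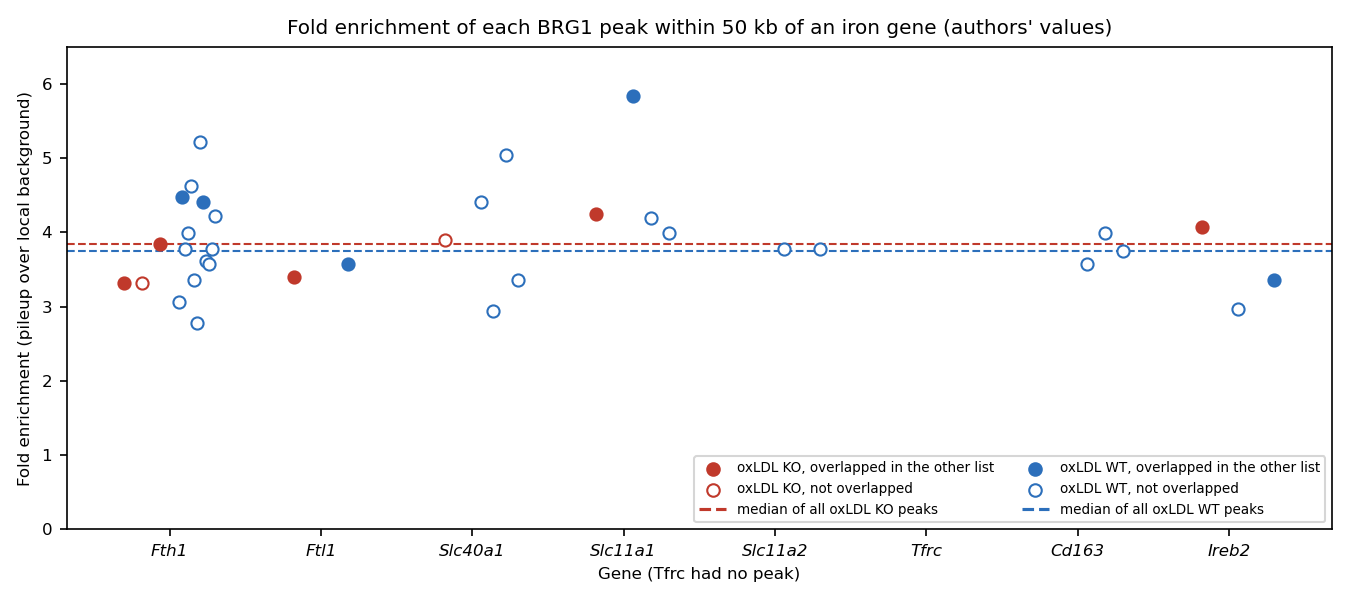
The vertical axis gives fold enrichment of each peak within 50 kb of an iron gene in the oxLDL KO list (red) and the oxLDL WT list (blue), with the median of all peaks of each list as a dashed line. Filled points overlap a peak of the other oxLDL list by at least 1 bp. The highest point of each list is at Slc11a1, 4.24 in oxLDL KO and 5.84 in oxLDL WT.

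The gene of ferritin heavy chain, the subunit with ferroxidase activity, had the most peaks in its window of the 8 genes. Fth1 (chromosome 19, 9980600 to 9985111, plus strand, mm10) had 3 peaks in oxLDL KO, where 5.06% of all protein-coding genes had as many or more, and 13 in oxLDL WT, where 0.0822% did (18 genes, Fth1 included). None of these 16 peaks lay inside the gene. Fth1 was the nearest protein-coding gene to 2 of the 3 oxLDL KO peaks and to 4 of the 13 oxLDL WT peaks. By that count in oxLDL WT, Slc40a1 had 3. The RefSeq promoter table lists starts for Fth1 at 9980600 and 9982646, and distances here are from the downstream start unless the other is named.

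The pair nearest to the ferritin gene matched between genotypes. The oxLDL KO peak (9978687 to 9979024) had its summit 3920 bp upstream of the start, with a fold enrichment of 3.85 and a −log10 q of 3.05. In oxLDL WT the peak (9978429 to 9979129) had its summit 3702 bp upstream, with 4.41 and 5.20, and contained all 338 bp of the oxLDL KO peak. From the upstream start these summits were 1874 bp away in oxLDL KO and 1656 bp away in oxLDL WT. Their pileups were 16 fragments (exact Poisson 95% interval 9.15 to 26.0) in oxLDL KO and 20 (12.2 to 30.9) in oxLDL WT, with local backgrounds of 3.42 and 3.76, so the 2 heights are not apart beyond counting error. An enhancer with antioxidant-response and AP-1 sequences is known several kilobases upstream of mouse Fth1, and whether these peaks cover it was not tested.

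A second upstream site was called in both lists without overlap. The oxLDL KO peak had its summit 7203 bp upstream of the start with a fold enrichment of 3.32. The oxLDL WT peak lay 7890 bp upstream with 5.21, the highest of the Fth1 peaks. Pileups were 16 fragments (interval 9.15 to 26.0) in oxLDL KO and 24 (15.4 to 35.7) in oxLDL WT, and these intervals overlap. The peaks were separated by 420 bp, and their summits by 687 bp.

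Farther upstream of Fth1, 5 oxLDL WT peaks stood between 42.3 and 49.6 kb from the gene body, with fold enrichments of 3.07, 4.47, 3.78, 3.99 and 4.62 in order of position. The protein-coding gene nearest to all 5 was Incenp, whose product is a subunit of the chromosomal passenger complex, at 31.6 to 38.9 kb. The summit closest to the ferritin gene among them was 887 bp from the start of Gm36913. In this group oxLDL KO had 1 peak, at 9931806 to 9932033 with 3.32, and it lay within the oxLDL WT peak of 4.47. Between the group and the gene, oxLDL WT alone had peaks at 37.4 kb (3.36) and 27.5 kb (2.78) upstream of the gene body. On the other side, oxLDL WT alone had 4 peaks inside Rab3il1, a guanine nucleotide exchange factor gene, 33.8 to 38.6 kb past the end of Fth1, with 3.62, 3.57, 3.78 and 4.22. The first of these had its summit 630 bp from a start of Rab3il1.

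Ferritin light chain, which helps form the iron core, had 1 peak in each oxLDL list. As many or more were found at 31.4% of all protein-coding genes in oxLDL KO and at 45.6% in oxLDL WT. Ftl1 (chromosome 7, 45457944 to 45459886, minus strand) lies in a window with 9 other protein-coding genes. The oxLDL KO peak (45460525 to 45461162) had its summit 809 bp upstream of the Ftl1 start, with a fold enrichment of 3.39 and a −log10 q of 2.0. In oxLDL WT the peak (45461069 to 45461351) had its summit 1223 bp upstream of the same start, with 3.57 and 2.90, and was nearer to Bax, the pro-apoptotic BCL2 family gene, at 0.586 kb. The peaks shared 94 bp and their summits were 414 bp apart, so the match rests on the 1 bp rule. Pileups were 14 fragments (interval 7.65 to 23.5) in oxLDL KO and 16 (9.15 to 26.0) in oxLDL WT, which do not differ beyond counting error.

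**Figure D3:**
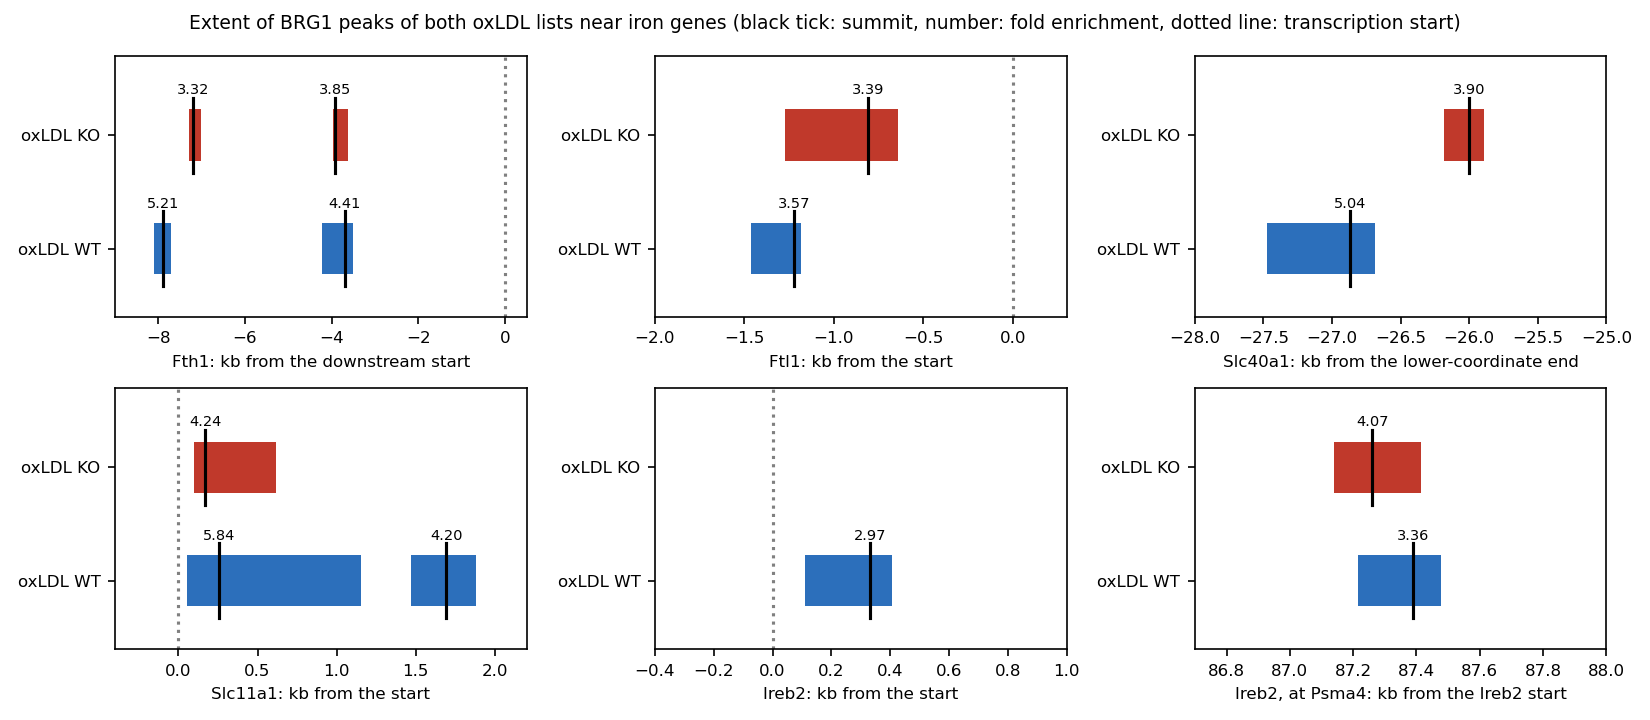
Horizontal bars give the extent of peaks of oxLDL KO (red, upper) and oxLDL WT (blue, lower) in kb from the named start or gene end, with summits as black ticks and fold enrichment above them. At Fth1 the pair 3920 and 3702 bp upstream overlaps and the pair 7203 and 7890 bp upstream does not, and at Slc40a1 the peaks stand 506 bp apart.

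The exporter gene Slc40a1 (chromosome 1, 45908070 to 45926532) was the only protein-coding gene in its window. It had 1 peak in oxLDL KO, where 31.4% of all protein-coding genes had as many or more, and 4 in oxLDL WT, where 9.80% did. The oxLDL KO peak (45881889 to 45882180) lay 26.0 kb below the lower-coordinate end of the gene with a fold enrichment of 3.90 and a −log10 q of 3.38. In oxLDL WT a peak at 45880598 to 45881382 lay 26.9 kb below that end with 5.04 and 7.21, higher than 90.6% of its list. These 2 peaks did not overlap, with 506 bp between them and 870 bp between their summits. The pileups were 17 fragments (interval 9.90 to 27.2) in oxLDL KO and 23 (14.6 to 34.5) in oxLDL WT, and these intervals overlap. The other oxLDL WT peaks in the ferroportin gene window had no oxLDL KO peak within 10 kb. Of these, 2 lay 39.4 and 43.3 kb below the lower end, with 2.94 and 4.41. The protein-coding gene nearest to the peak at 43.3 kb was Wdr75, which lies outside the window, 41.1 kb from that peak. The last oxLDL WT peak lay inside Slc40a1, 1.22 kb from its higher-coordinate end, with 3.36 and a −log10 q of 2.39.

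Slc11a1, the phagosomal metal transporter gene, carried the highest peak of either list among the 8 genes. Slc11a1 (chromosome 1, 74375014 to 74386057, plus strand) had 1 peak in oxLDL KO and 3 in oxLDL WT. As many or more were found at 31.4% of all protein-coding genes in oxLDL KO and at 16.2% in oxLDL WT. The oxLDL KO peak (74375299 to 74375817) had its summit 169 bp past the RefSeq start, with a fold enrichment of 4.24 and a −log10 q of 4.36, higher than 68.3% of its list. In oxLDL WT the peak (74375257 to 74376356) was 1100 bp wide with its summit 256 bp past the start, with 5.84 and 10.2, higher than 96.5% of its list, and it contained the whole 519 bp of the oxLDL KO peak. Pileups were 19 fragments (interval 11.4 to 29.7) in oxLDL KO and 27 (17.8 to 39.3) in oxLDL WT, over backgrounds of 3.71 and 3.79, so the intervals overlap. This was the closest agreement in position among the matched pairs of the 8 genes, with summits 87 bp apart. A second oxLDL WT peak lay 1691 bp past the start with 4.20, and one more inside the neighbouring phosphatase gene Ctdsp1 with 3.99. Neither overlapped an oxLDL KO peak. The nearest peak to the gene was 4317 kb away in KO and 376 kb away in WT.

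Slc11a2, the endosomal transporter gene (chromosome 15, 100387898 to 100424209), had no peak in oxLDL KO and 2 in oxLDL WT, where 26.7% of all protein-coding genes had as many or more. The oxLDL WT peak inside the gene (100422681 to 100422937) lay 1.39 kb from its higher-coordinate end. Outside the gene, the oxLDL WT peak at 100461354 to 100461662 was 0.848 kb from Letmd1, a mitochondrial protein gene. Both had a fold enrichment of 3.78 and a pileup of 17 fragments. The nearest oxLDL KO peak to the gene was 165 kb away. A pileup of 17 fragments is also the median of the whole oxLDL WT list.

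Of the uptake receptor genes, only Cd163 had peaks, and only in oxLDL WT. Tfrc (chromosome 16, 32608896 to 32632794, plus strand), the transferrin receptor gene, had none in any list. The nearest peaks to it were 208 kb away in oxLDL KO, 172 kb in oxLDL WT, 2221 kb in KO and 530 kb in WT. Cd163 (chromosome 6, 124304636 to 124330529, plus strand) is the haemoglobin receptor gene. It had no peak in oxLDL KO and 3 in oxLDL WT, where 16.2% of all protein-coding genes had as many or more. All 3 lay 43.3 to 45.4 kb past the end of Cd163. Their fold enrichments were 3.57, 3.99 and 3.75, and the nearest protein-coding gene to each was Pex5, a peroxisomal import receptor gene, 20.9 to 23.0 kb away. In oxLDL KO the nearest peak to Cd163 was 711 kb away.

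The iron sensor gene is Ireb2 (chromosome 9, 54862658 to 54912534, plus strand). It had 1 peak in oxLDL KO (31.4% of all protein-coding genes had as many or more) and 2 in oxLDL WT (26.7%). At its own start only oxLDL WT had a peak, at 54863866 to 54864161 with the summit 331 bp past the RefSeq start. This peak had a fold enrichment of 2.97 and a −log10 q of 2.08, higher than 12% of its list, on a pileup of 17 fragments and a local background of 5.06. The other peaks in the window belong by position to the proteasome subunit gene Psma4, 38.5 kb past the end of Ireb2. There the oxLDL KO peak had 4.07 with its summit 157 bp from a Psma4 start, and the oxLDL WT peak 3.36 with its summit 286 bp from it. The 2 peaks shared 200 bp.

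By overlap of at least 1 bp, 5 of the 7 oxLDL KO peaks matched an oxLDL WT peak (71.4%, exact binomial 95% interval 29.0 to 96.3), against 59.6% of all oxLDL KO peaks. In the other direction 5 of the 28 oxLDL WT peaks matched (17.9%, interval 6.06 to 36.9), against 27.3% of all oxLDL WT peaks. Both background shares lie inside the intervals. The 5 matched pairs were 2 at Fth1 and 1 each at Ftl1, Slc11a1 and Psma4 in the Ireb2 window. Each of the 2 unmatched oxLDL KO peaks, at Fth1 and Slc40a1, stood within 1 kb of an oxLDL WT peak. All 7 oxLDL KO peaks were thus within 1 kb of an oxLDL WT peak, as were 70.5% of all oxLDL KO peaks, and 9 of the 28 oxLDL WT peaks were within 1 kb of an oxLDL KO peak, as were 37.0% of all. This wider match was chosen after the positions had been seen.

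**Figure D4:**
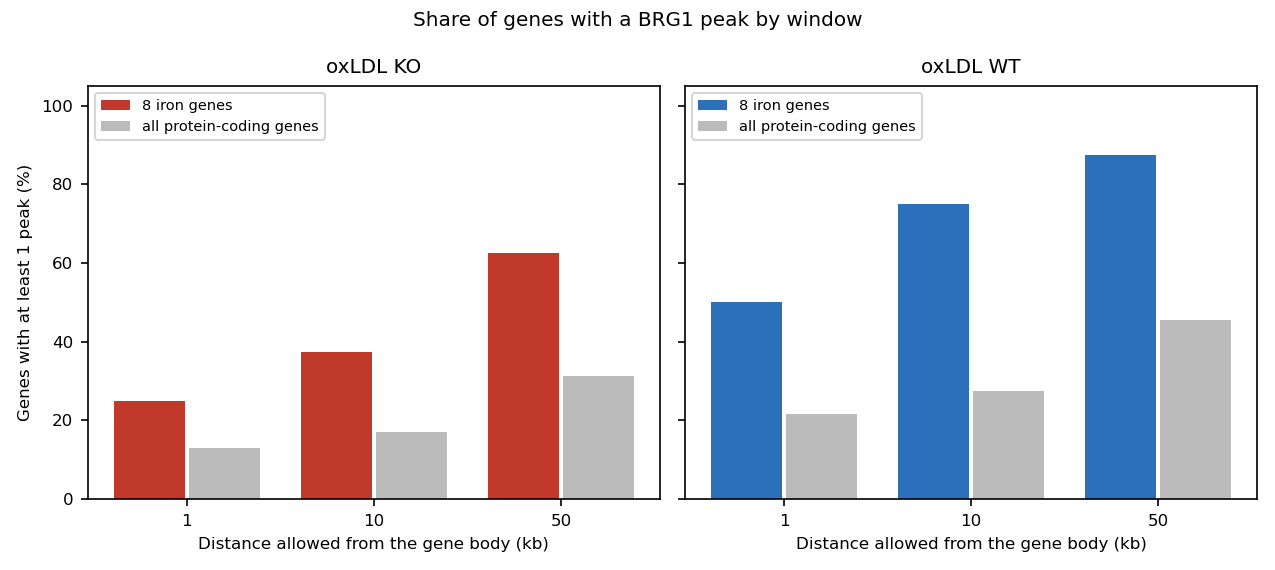
Bars give the share of genes with at least 1 peak in the gene body or within 1, 10 or 50 kb of it, for the 8 iron genes (coloured) and for all protein-coding genes (grey), in oxLDL KO (left) and oxLDL WT (right). At 1 kb the counts are 2 of 8 in oxLDL KO and 4 of 8 in oxLDL WT.

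In narrower windows fewer genes were counted. Within 10 kb, 3 of the 8 genes had a peak in oxLDL KO (17.1% of all protein-coding genes) and 6 in oxLDL WT (27.5% of all). Within 1 kb of the body, 2 of 8 had one in oxLDL KO (13.1% of all), at Ftl1 and Slc11a1, and 4 of 8 in oxLDL WT (21.6% of all), at Slc40a1, Slc11a1, Slc11a2 and Ireb2. Of the 8, Slc11a1 alone had a peak that close in both lists (10.3% of all genes did), Ftl1 had one in oxLDL KO alone (2.85%), and the other 3 in oxLDL WT alone (11.3%).

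The sequences before the starts with a peak nearby are shown. Only the 250 bases before each start were compared with the peaks, so sequence past the start was not covered. The closest summits past a start lay at Slc11a1, 169 bp in oxLDL KO and 256 bp in oxLDL WT. At Ireb2 the oxLDL WT summit lay 331 bp past the start. No peak of any list overlapped the 250 bases before a start in the RefSeq promoter table (GRCm38.p6), which holds 6 of the 8 genes, without Slc40a1 and Slc11a2. Capitals mark matches, on either strand, to the motifs searched: the antioxidant response element TGANNNNGC, the AP-1 site TGANTCA, the PU.1 forms GAGGAAG and, overlapping in part, GGAAGTG, the E-box CACGTG, the MiT/TFE site CATGTGA, the CCAAT box, the GC box GGGCGG and TATAAA. The letters run from 250 bases before the start to the base before it.
Fth1, upstream start, chr19:9980350-9980599, plus strand: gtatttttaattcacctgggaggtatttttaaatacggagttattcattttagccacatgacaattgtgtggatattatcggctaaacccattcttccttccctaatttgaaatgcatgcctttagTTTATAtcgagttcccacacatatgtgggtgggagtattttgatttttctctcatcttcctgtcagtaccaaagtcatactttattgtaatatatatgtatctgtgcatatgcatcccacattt
Fth1, downstream start, chr19:9982396-9982645, plus strand: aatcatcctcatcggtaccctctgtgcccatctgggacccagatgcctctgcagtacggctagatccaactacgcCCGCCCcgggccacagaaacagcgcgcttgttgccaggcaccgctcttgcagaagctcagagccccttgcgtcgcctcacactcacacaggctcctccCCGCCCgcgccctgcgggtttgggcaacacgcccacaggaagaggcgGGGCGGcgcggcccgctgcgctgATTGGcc
Ftl1, chr7:45459887-45460136, minus strand: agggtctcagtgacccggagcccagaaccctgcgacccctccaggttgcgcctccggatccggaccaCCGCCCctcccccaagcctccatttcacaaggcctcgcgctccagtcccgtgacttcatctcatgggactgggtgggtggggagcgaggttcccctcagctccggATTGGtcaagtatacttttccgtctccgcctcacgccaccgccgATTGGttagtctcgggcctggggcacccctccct
Slc11a1, chr1:74374953-74375202, plus strand: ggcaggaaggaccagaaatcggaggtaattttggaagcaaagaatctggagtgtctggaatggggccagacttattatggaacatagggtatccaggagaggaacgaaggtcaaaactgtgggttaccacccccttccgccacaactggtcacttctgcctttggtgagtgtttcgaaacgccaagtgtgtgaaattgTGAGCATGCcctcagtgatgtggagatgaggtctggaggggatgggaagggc
Ireb2, chr9:54863505-54863754, plus strand: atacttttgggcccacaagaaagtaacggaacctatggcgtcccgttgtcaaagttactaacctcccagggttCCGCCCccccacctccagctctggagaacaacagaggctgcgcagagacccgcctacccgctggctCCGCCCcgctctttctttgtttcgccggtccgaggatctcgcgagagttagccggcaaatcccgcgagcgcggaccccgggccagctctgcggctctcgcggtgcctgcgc

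The windows before the downstream Fth1 start and the starts of Ftl1 and Ireb2 held GC boxes, and both ferritin windows also held CCAAT boxes. The downstream Fth1 window had 3 GC boxes and 1 CCAAT box, Ftl1 had 1 GC box and 2 CCAAT boxes, and Ireb2 had 2 GC boxes. The upstream Fth1 start is the nearer one to the peaks upstream of the gene. Before it there was no GC or CCAAT box and 1 match to TATAAA, which 12.4% of all promoters hold. Over all 32851 promoters of the table, 32.7% held GGGCGG and 33.8% CCAAT. Slc11a1, which had the highest peak, held none of these and 1 match to TGANNNNGC, which 35.2% of all promoters also hold. No AP-1, PU.1, E-box or MiT/TFE letters were found in these 5 windows, and 6.75% of all promoters held TGANTCA, 10.6% GAGGAAG, 8.55% GGAAGTG, 6.02% CACGTG and 3.50% CATGTGA. These matches describe letters in the windows.

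Other genes of iron and haem handling were represented at higher shares than all genes in both oxLDL lists. Of 59 such genes, 19 had a peak in the body or within 1 kb in oxLDL KO (32.2%, against 13.1% of all protein-coding genes) and 24 in oxLDL WT (40.7%, against 21.6%), while 0 had one in KO or WT. The difference in these shares was not tested. The counts include the gene body, and gene length was not taken into account. Earlier results of these data were known when the 59 genes were chosen, so these shares too are a description. For KO and WT the 1 kb share of all genes was not computed, and within 50 kb it was 1.01% and 2.07%. Both oxLDL lists shared 17 of the 59 genes (10.3% of all protein-coding genes). In oxLDL KO alone there were 2 (2.85% of all) and in oxLDL WT alone 7 (11.3% of all). At 14 of the 17, an oxLDL KO peak overlapped an oxLDL WT peak. In the following values each list is given by its highest peak, and the sites can differ. Flvcr1, which encodes a haem exporter, had fold enrichments of 6.34 in oxLDL KO and 5.46 in oxLDL WT, with summits at 191025882 and 191025867. Aco1, which encodes IRP1, the partner of the Ireb2 product, had 5.31 in oxLDL KO and 5.02 in oxLDL WT. Ncoa4, the receptor that takes ferritin to the lysosome for breakdown, had 4.53 in oxLDL KO and 5.67 in oxLDL WT. All 3 genes thus had their highest peaks at the same gene end in both lists.

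Haem import and iron-sulphur genes were also among the shared ones. Slc48a1, which encodes a transporter that moves haem out of the phagolysosome, had 5.85 in oxLDL KO and 3.42 in oxLDL WT. Iscu, the scaffold for iron-sulphur cluster assembly, had 6.09 in oxLDL KO and 4.62 in oxLDL WT. Lrp1, whose product takes up haemopexin-bound haem among other cargo, had 7 peaks in each list, with highest values of 4.75 in oxLDL KO and 7.14 in oxLDL WT. The regulator genes Nfe2l2 (4.03 in oxLDL KO and 5.88 in oxLDL WT) and Hif1a (3.85 in oxLDL KO and 4.97 in oxLDL WT) completed the 8 highest.

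Both biliverdin reductase genes, which act after haem breakdown, had peaks in the body or within 1 kb in oxLDL WT alone: Blvra with 6.51 and Blvrb with 4.60. Within the same 1 kb limit, others in oxLDL WT alone were Usf2, a transcription factor gene (4.62), Cisd2, an iron-sulphur protein gene (3.96), and Hfe, the haemochromatosis gene (3.47). Glrx5, which acts in iron-sulphur cluster transfer, had a peak within that limit in oxLDL KO alone, with 3.82. In the 50 kb window Cisd2 had 2 peaks in each oxLDL list, and Glrx5 had 1 in oxLDL KO and 5 in oxLDL WT. Hmox1, the haem oxygenase gene, fell outside the naming rule and was looked up after the other values were seen. Its only peaks, 4 in oxLDL WT, lay more than 1 kb and up to 50 kb from the gene. The genes were also compared by the set of lists with a window peak. Of the 59, 23 shared the pattern of Fth1, Ftl1, Slc40a1, Slc11a1 and Ireb2 (both oxLDL lists alone). The pattern of Slc11a2 and Cd163 was shared by 18, and that of Tfrc by 15. Whatever their state in KO and WT, 27.5% of all protein-coding genes had a window peak in both oxLDL lists. A further 18% had one in oxLDL WT and not in oxLDL KO. The difference from these shares was not tested. The highest fold enrichment in the window was nearest to that of Fth1 at Pcbp1, Aco1 and Hpx.

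The cell type could be checked only through peaks at marker genes. Of 12 macrophage markers, 7 had a peak in the body or within 1 kb in oxLDL KO, 11 in oxLDL WT, 1 in KO (Spi1) and 0 in WT. By the same rule 13.1% of all protein-coding genes had one in oxLDL KO and 21.6% in oxLDL WT. Of 10 markers of the erythroid lineage, which also takes up much iron in marrow, 1 had one in oxLDL KO and 1 in oxLDL WT (Tal1). Neutrophil markers counted 0 of 10 in oxLDL KO and 2 of 10 in oxLDL WT, lymphocyte markers 1 and 2 of 10, and hepatocyte and stromal markers 0 of 8 each in both. The counts of non-macrophage markers were near or below the shares of all genes in both oxLDL lists. In KO and WT, 0 of the non-macrophage markers had a peak. The 1 kb share of all genes was not computed for KO and WT, and within 50 kb it was 1.01% and 2.07%. The part of other cells in the iron gene peaks was not tested, and peaks do not measure the transcripts of these genes.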

How the data were processed

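BRG1 ChIP-seq libraries of BMDM were grouped by sample title, 1 per group, so there are no replicates. Tools listed in the submitters' processing notes are MACS3, Bowtie2, Trimmomatic 0.33 and bcl2fastq 2.17, on mm10, with no settings. Whether the caller used the input as its control is not stated there. The authors deposited 1 peak list per library, with a score (about 10 times the −log10 q), a fold enrichment (a ratio of pileup to local background), −log10 p and −log10 q values, and a summit offset.

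Genes came from a RefSeq table on GRCm38.p6, the assembly of mm10, and strand and starts from its promoter table. All peaks of the lists were used. Pileup and background were solved for each peak from the deposited fold enrichment, with a pseudocount of 1, and Poisson p-value. Whole pileups, within 2% of the step between neighbouring values, fitted 99.96% of peaks in oxLDL KO, 99.99% in oxLDL WT, 97.1% in KO and 99.6% in WT. The lowest background of a list, a measure of relative depth, was 3.42, 3.76, 3.84 and 2.70 fragments in that order. Read totals are not known. Overlap meant at least 1 bp. The code was tested on simulated data. Python 3.11.15, pandas 2.3.3 and scipy 1.17.1 were used.

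The 8 genes, the 59 other iron and haem genes, the motifs and the markers were chosen with earlier results of these data known. The text names all 8, up to 8 of the other genes with a peak in the body or within 1 kb in both oxLDL lists and up to 6 in a single one, by fold enrichment.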

Additional observations from a re-analysis of the deposited data

How the results depend on the processing

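Of 75 comparisons of a main count or share with an alternative setting, 58 stayed within 1.5 times the main count or within its interval and 17 did not. For single genes these numbers were 189 and 35. Both tallies include counts of 0, as in KO and WT, which a stricter setting can only leave at 0. They also include the removal of high-background peaks, which took none away at these genes. Neither tally therefore measures how stable the counts above 0 are. With −log10 q limited to 5 or more, iron gene peaks numbered 0 in oxLDL KO and 7 in oxLDL WT, at 0 and 3 genes. With none left in oxLDL KO, its share could not be computed there. The 0% of matched oxLDL WT peaks follows from this limit, because it removed their oxLDL KO partners. In the full lists, the oxLDL WT peaks starting at 9931410 and 9978429 (Fth1) and at 74375257 (Slc11a1) overlapped an oxLDL KO peak. The rest of the 7 did not. A window of 10 kb gave 4 peaks at 3 genes in oxLDL KO and 8 peaks in oxLDL WT, of which 37.5% were matched. A window of 1 kb gave 2 peaks at 2 genes in oxLDL KO and 5 peaks at 4 genes in oxLDL WT. Of the 2 oxLDL KO peaks, 100% were matched (exact binomial 95% interval 15.8 to 100). The oxLDL WT partner at Ftl1 lay 1223 bp from the gene, outside this window, so Ftl1 counts there as oxLDL KO alone. Counting peaks nearest to the iron gene left 11 in oxLDL WT. With summits within 200 bp as the match, 28.6% of the oxLDL KO peaks were matched, and with a gap of no more than 1 kb, added after seeing the data, 100%. Leaving out high-background peaks removed none at these genes. No paired analysis was possible because each group has 1 library. A median peak of either oxLDL list rests on 17 fragments (exact Poisson 95% interval 9.90 to 27.2), and this depth limits what can be told apart or detected.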
